A study of Rattus norvegicus with 8 samples.

Results

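Neurotrophins, the ligands of the GDNF family and their receptors were followed in the 2 chambers of the rat heart. The set held 8 genes: the ligands Bdnf, Ntf3 and Gdnf, the receptor kinases Ntrk2, Ntrk3 and Ret, the low-affinity receptor Ngfr and the coreceptor Gfra1. The rule took all probe sets annotated to these symbols and used no measured value, although the genes were picked with earlier results of these data known. All 8 genes were represented, by 16 of 31042 probe sets on the array, or 8 of 14217 genes that carry a single symbol. A probe set is a group of short oligonucleotides that together read 1 transcript region.

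The samples were appendages of the left atrium and free walls of the left ventricle from normal male Sprague Dawley rats weighing 225 to 275 g. Tissue from 13 animals was combined into 4 atrial and 4 ventricular pools, and each pool was hybridized to 1 Affymetrix array. Which animals entered which pool, and the age of the animals, are not given in the sources used here. Each SD describes pools and not single animals. Values are log2 signal intensities, on which a step of 1 is a doubling, and differences are atrium minus ventricle.

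Neurotrophins are secreted proteins that keep neurons alive and guide nerve endings to their targets. Bdnf acts through the receptor kinase TrkB (Ntrk2) and neurotrophin-3 (Ntf3) mainly through TrkC (Ntrk3), and both also bind the p75 receptor (Ngfr). Gdnf first binds the membrane-anchored coreceptor Gfra1, and the complex then engages the receptor kinase Ret. In the heart these factors are known for their part in the growth of sympathetic, parasympathetic and sensory nerves, and Bdnf and its receptor are also made by muscle and vascular cells.

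The stretches of DNA just upstream of 4 of these genes are given because the text below sets their transcripts against each other. They are the 250 bases before an annotated transcription start, 5′ to 3′ on the strand of the gene, from RefSeq on the assembly GRCr8, and no coordinates of the array's own design were used. Bdnf has several alternative first exons, each with its own promoter, and 6 windows were listed for it. The 1 printed lies at chr3:116637608-116637857 on the plus strand and is the one of the 6 with CACGTCA, a variant of the cyclic AMP response element. Other forms of that element were not searched. The windows of Gdnf (chr2:58621077-58621326, plus strand), Ntf3 (chr4:160670624-160670873, minus strand) and Ret (chr4:153040557-153040806, minus strand) are set below it. Capitals mark matches to CACGTCA on either strand. They also mark the GC box, searched as GGGCGG on either strand. The TATA box was searched likewise as TATAAA, and no matches overlapped.
Bdnf: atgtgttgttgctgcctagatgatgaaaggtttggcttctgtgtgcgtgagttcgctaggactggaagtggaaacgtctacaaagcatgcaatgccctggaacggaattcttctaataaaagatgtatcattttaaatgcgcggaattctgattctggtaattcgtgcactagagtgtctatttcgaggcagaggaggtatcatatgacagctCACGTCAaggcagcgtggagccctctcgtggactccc
Gdnf: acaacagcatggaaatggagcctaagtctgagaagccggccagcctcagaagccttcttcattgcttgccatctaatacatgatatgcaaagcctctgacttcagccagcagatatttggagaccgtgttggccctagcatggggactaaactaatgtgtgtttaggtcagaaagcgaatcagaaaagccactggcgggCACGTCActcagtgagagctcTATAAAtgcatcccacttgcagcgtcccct
Ntf3: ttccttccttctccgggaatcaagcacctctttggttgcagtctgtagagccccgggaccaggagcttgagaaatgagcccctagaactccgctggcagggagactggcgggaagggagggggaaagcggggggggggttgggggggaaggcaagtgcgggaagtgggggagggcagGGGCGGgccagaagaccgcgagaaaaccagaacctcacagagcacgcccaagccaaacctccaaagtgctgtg
Ret: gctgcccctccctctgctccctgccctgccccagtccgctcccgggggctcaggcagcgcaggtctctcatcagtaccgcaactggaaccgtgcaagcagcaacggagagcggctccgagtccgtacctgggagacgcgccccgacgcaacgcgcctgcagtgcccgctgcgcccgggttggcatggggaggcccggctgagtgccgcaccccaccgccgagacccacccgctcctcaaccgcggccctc

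In all, 5 of the 8 genes had an entry, with 12 windows. CACGTCA was found in 2 of the 12, the Bdnf and Gdnf windows printed above, and in 515 of 33469 windows of all genes (1.54%). GGGCGG was found in 5 of the 12, against 30.5% of all windows, and TATAAA in 2 of the 12, against 12.9%. Some of the 12 overlap, and the 5 with GGGCGG include the 3 of Ntf3, where neighbouring windows hold the same match. The printed Ret window held none of these letters in that order. The arrays do not tell which of the Bdnf starts was used, so the windows are a description of the sequence only.

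The chamber labels were checked through genes that mark the 2 kinds of muscle. Nppa, which encodes atrial natriuretic factor, read 13.67 to 13.77 in the atria, at the top of the range of the arrays, where the signal may be saturated, and 9.79 to 10.31 in the ventricles. Sarcolipin (Sln) was higher in the atria by 7.94. The ventricular transcription factor Irx4 was lower in the atria by a difference of -4.21, and in each of 9 such markers the arrays of the 2 tissues did not overlap. Atrial replicates 1 and 4 stood apart in part of the ventricular muscle genes, with both above replicates 2 and 3 in 6 of 10 markers and a list level of 6.64 and 6.92 against 5.58 and 5.79. Myl2, the ventricular regulatory light chain, read 10.48 and 11.3 in them against 4.32 and 6.82 in atrial replicates 2 and 3, and at least 13.23 in every ventricular array, whereas in Irx4 and Myh7 replicate 1 lay between replicates 2 and 3. For the 8 genes and the pathway partners named below, calls lost without both of these pools are given with both values. Differences of Gfra1 and Nr4a3, which moved by over 1.5 times, are given too. The uncalled Ntrk3 difference also moved by more than that, from -0.04 to -0.08. Calls gained by partners, and calls lost by partners that are not named, are not listed.

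Of the 16 probe sets, 8 passed an adjusted p under 0.05 from limma, a linear model that moderates the variance of each probe set with that of all others, and 38.8% of all probe sets on the array were called by the same rule. The called probe sets were 2 higher in the atria (Ntf3 and 1 of the probe sets of Ntrk2; 18.6% over the array) and 6 lower (both probe sets of Bdnf, all 3 of Ret, and Gdnf; 20.1% over the array). The same 8 were those in which no atrial array overlapped a ventricular one, against 37.0% of all probe sets. The median of the 16 differences was -0.12, beside -0.05 over the array. The study used the SAM statistic at a false discovery rate of 0.01% together with 1.8 fold. With a limma adjusted p under 0.0001 in place of that rate, only the main Bdnf probe set passed, and 4.51% of all probe sets did; with the SAM statistic at that rate, again only this member passed, and 5.29% of all probe sets did. At a SAM q under 0.05, which 55.4% of all probe sets passed, 2 of the 16 were higher and 8 lower in the atria, now with Ngfr (q = 0.021) and the main probe set of Gfra1 (q = 0.039). Whether a transcript was lower because a cell type was rarer or because its cells held less of the RNA cannot be told apart in pieces of tissue.

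**Figure D1:**
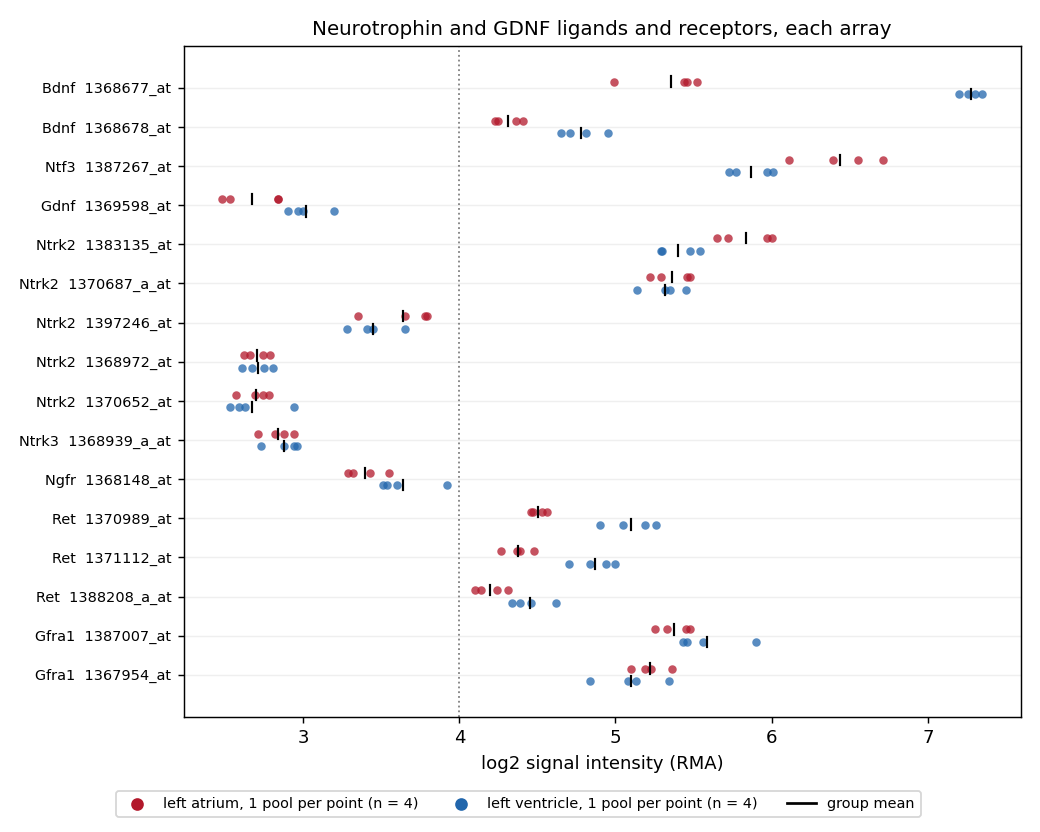
Log2 signal intensity of each of the 16 probe sets (rows) on every array, with 1 point per pool (n = 4 per tissue), a black bar at each tissue mean and a dotted line at 4, under which intensities are near the low end. The main Bdnf probe set had its atrial arrays between 4.99 and 5.52 and its ventricular arrays between 7.2 and 7.35, while the Ntrk3, Ngfr and Gdnf arrays all lay left of the line.

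Bdnf transcripts were lower in the atria than in the ventricles. At its brightest probe set (1368677_at), Bdnf read 5.44, 5.52, 5.46 and 4.99 in atrial replicates 1 to 4, and 7.26, 7.20, 7.30 and 7.35 in the ventricular ones. Every atrial array lay far below every ventricular array, and the lowest atrial value came from replicate 4. The means were 5.35 ± 0.25 and 7.27 ± 0.06 (SD, n = 4 each), and the difference of -1.92 (SE 0.11, 95% interval -2.16 to -1.68) corresponded to 3.79 fold less in the atria (limma, adjusted p = 3.5e-07). The ventricular pools were nearly level, with a spread under the median SD of 0.10 for ventricular arrays.

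A second Bdnf probe set (1368678_at) gave the same direction and a smaller step. It read 4.25, 4.36, 4.23 and 4.41 in the atria and 4.71, 4.65, 4.95 and 4.81 in the ventricles, again with no overlap. The difference was -0.47 (SE 0.08), or 1.38 fold less in the atria (limma, adjusted p = 8.7e-04). Taken array by array, the gap between both probe sets differed between the tissues by -1.45, and an exact two-sided permutation test gave p = 0.029, the smallest that 4 arrays against 4 allow, or 0.046 after adjustment over 8 such pairs of probe sets. The mean of the 2 probe sets differed by -1.19 (adjusted p = 6.2e-07), so the size of the Bdnf difference depended on the probe set while its direction did not.

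Neurotrophin-3 went the other way. Ntf3, read by 1 probe set (1387267_at), had 6.71, 6.39, 6.55 and 6.11 in the atria and 5.97, 6.01, 5.73 and 5.77 in the ventricles. The lowest atrial pool, replicate 4, was just above the highest ventricular pool. The means were 6.44 ± 0.26 and 5.87 ± 0.14 (SD, n = 4 each), a difference of 0.57 (SE 0.12, 95% interval 0.3 to 0.84), or 1.48 fold more in the atria (limma, adjusted p = 0.0038). Atrial replicate 4 had the lowest atrial value of Ntf3 and of Bdnf at its main probe set, but the highest atrial value at the second Bdnf probe set. Without it the differences were -1.80 for Bdnf at the main probe set (adjusted p = 2.2e-08) and 0.68 for Ntf3 (adjusted p = 3.4e-04).

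Gdnf was dim in both chambers. Its probe set (1369598_at) read 2.53, 2.48, 2.84 and 2.84 in the atria and 3.20, 3.00, 2.97 and 2.90 in the ventricles. The tissues did not overlap, but atrial replicates 3 and 4 came within a small step of ventricular replicate 4. The difference was -0.34 (SE 0.10, 95% interval -0.57 to -0.12; limma, adjusted p = 0.021), with both means under 4. The call did not hold without atrial replicate 1 (-0.30, adjusted p = 0.059), without atrial replicate 2 (-0.28, 0.062) or without ventricular replicate 1 (-0.28, 0.063). Among the 11143 probe sets of the array with both means under 4, 16.3% were called.

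TrkB, the kinase receptor of Bdnf, was read by 5 probe sets, of which only the brightest was called. Ntrk2 at 1383135_at read 5.65, 5.72, 5.97 and 6.0 in the atria and 5.30, 5.54, 5.29 and 5.48 in the ventricles, without overlap. The means of 5.83 ± 0.17 and 5.40 ± 0.12 (SD, n = 4 each) differed by 0.43 (SE 0.10, 95% interval 0.22 to 0.64), or 1.35 fold more in the atria (limma, adjusted p = 0.0048). At this probe set the receptor was thus higher in the chamber where its ligand read lower.

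The other Ntrk2 probe sets did not pass the test. At 1370687_a_at the means were 5.36 and 5.32 and the difference was 0.05 (95% interval -0.14 to 0.23), and at 1397246_at, with both means under 4, it was 0.20 (-0.04 to 0.44). The remaining pair, 1368972_at and 1370652_at, also lay under 4 and differed by -0.01 (-0.16 to 0.14) and 0.02 (-0.18 to 0.23). Set against the brightest probe set array by array, 1370687_a_at differed in its chamber step by 0.38 and 1368972_at by 0.44 (exact two-sided permutation test, p = 0.029 and adjusted p = 0.046 for each), whereas the gaps to 1370652_at (0.41, p = 0.057, adjusted 0.076) and to 1397246_at (0.23, p = 0.14, adjusted 0.14) were not past the threshold. The mean over all 5 probe sets differed by 0.14 between the chambers (limma, adjusted p = 0.12). TrkB is made as a full-length kinase and as shortened forms without the kinase domain, and which of them each probe set reads is not given in the sources used here.

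TrkC, the kinase receptor of neurotrophin-3, was at the low end of the intensities in both chambers. Ntrk3 (1368939_a_at) read 2.82, 2.88, 2.71 and 2.94 in the atria and 2.94, 2.96, 2.73 and 2.88 in the ventricles, with the arrays of the tissues intermixed. The difference of -0.04 had a 95% interval of -0.21 to 0.13 (limma, adjusted p = 0.71).

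The p75 receptor, which binds all neurotrophins and their precursors, was also dim. Ngfr (1368148_at) read 3.55, 3.29, 3.32 and 3.43 in the atria and 3.54, 3.92, 3.51 and 3.60 in the ventricles. Atrial replicate 1 lay among the ventricular arrays and the other atrial arrays lay below them. The difference was -0.24 (SE 0.10, 95% interval -0.46 to -0.02), which did not pass after adjustment (limma, adjusted p = 0.076). Without atrial replicates 1 and 4 it was -0.33 (adjusted p = 0.048).

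**Figure D2:**
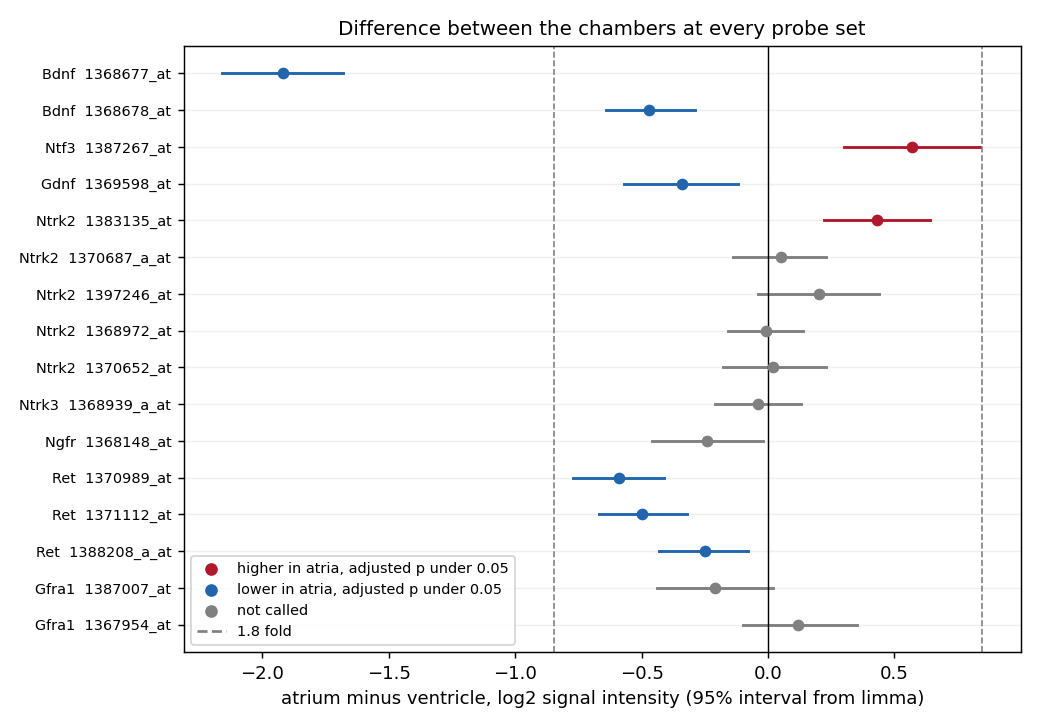
Difference between atrial and ventricular means at each probe set (log2 signal intensity, atrium minus ventricle), with the 95% interval from limma and dashed lines at 1.8 fold. Red and blue points are those with more or less signal in the atria past the limit of 0.05, and grey points are not called; only the main Bdnf probe set lies beyond a dashed line, at -1.92.

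Ret, the signalling receptor of the GDNF family, was lower in the atria at all 3 of its probe sets. At the brightest (1370989_at) it read 4.53, 4.46, 4.56 and 4.47 in the atria and 5.26, 5.05, 5.19 and 4.90 in the ventricles. The atrial pools were nearly level and all lay below the lowest ventricular pool. The means of 4.51 ± 0.05 and 5.10 ± 0.16 (SD, n = 4 each) differed by -0.59 (SE 0.08, 95% interval -0.77 to -0.41), or 1.51 fold less in the atria (limma, adjusted p = 2.2e-04).

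The other Ret probe sets, which were designed from 1 shared transcript record, had the same direction. At 1371112_at the atrial arrays read 4.39, 4.27, 4.48 and 4.37 and the ventricular arrays 5.0, 4.84, 4.94 and 4.70, a difference of -0.50 (1.41 fold less, adjusted p = 6.1e-04). At 1388208_a_at they read 4.14, 4.10, 4.24 and 4.31 against 4.46, 4.39, 4.62 and 4.34, a difference of -0.25 (1.19 fold less, adjusted p = 0.026). Under cyclic loess 5 member probe sets were lower instead of 6, although Gdnf and the main probe sets of Bdnf and Ret kept their calls. A call was thus lost at another Bdnf or Ret probe set, of which 1388208_a_at had the weakest call. No tissue overlapped the other at any of them, though at 1388208_a_at atrial replicate 4 and ventricular replicate 4 nearly met. The steps were not of equal size: the gap from the brightest probe set was -0.10 for 1371112_at and -0.34 for 1388208_a_at (exact two-sided permutation test, p = 0.029 and adjusted p = 0.046 for each).

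Gfra1, the coreceptor that hands Gdnf to Ret, showed no difference that passed the test. At 1387007_at it read 5.33, 5.48, 5.45 and 5.25 in the atria and 5.56, 5.90, 5.46 and 5.43 in the ventricles, and at 1367954_at 5.10, 5.23, 5.19 and 5.36 against 5.34, 5.08, 4.84 and 5.13. The tissues overlapped at both, and the signs were opposite: -0.21 (95% interval -0.44 to 0.02, limma, adjusted p = 0.13) and 0.12 (-0.10 to 0.35, adjusted p = 0.36). The intervals left room for a step as large as -0.44, which lies inside the interval of Ret at its brightest probe set (-0.77 to -0.41). Whether Gfra1 changed less than Ret was not tested. Without atrial replicates 1 and 4 the difference at 1387007_at was -0.12 (adjusted p = 0.47). Neither mean was under 4, so the signal was not at the low end.

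The ligands and their receptors are set side by side here. Bdnf was lower in the atria (-1.92) and Ntrk2 higher at 1 of its 5 probe sets (0.43), Ntf3 was higher (0.57) while Ntrk3 was at the low end, and Gdnf and Ret were both lower (-0.34 and -0.59) while Gfra1 did not pass. These comparisons share the same 8 arrays.

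The genes with the profile most like that of each called member were found by the root mean square distance between their log2 values over the 8 arrays, each centred on its own mean. Nearest to Bdnf were Scx (distance 0.084, difference -1.82), a transcription factor of tendon and valve cells, then Gnb3 (0.126, -1.87), a G protein beta subunit, and Phactr1 (0.137, -1.86), a regulator of actin and protein phosphatase 1. Ntf3 was nearest to Crispld2 (0.069, difference 0.52), Rtn2 (0.085, 0.64) and Pts (0.087, 0.62). Ret was nearest to Kctd12 (0.064, -0.54), Pcsk7 (0.068, -0.57) and Clasrp (0.068, -0.52). For the small differences of Ntrk2 (Cers2, Zfp697 and Ddx3x-ps1) and Gdnf (Crtap, Tgm3 and C3ar1) the nearest distances lay between 0.065 and 0.09. The likeness is dominated by the step between the chambers and is a description over 8 arrays.

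Around these 8 genes, 7 lists of pathway partners held 164 genes, of which 135 were measured and the others not analysed here. Each gene was read through its brightest probe set. Of the 135, 32 were higher in the atria, 31 lower and 72 not called. Over all genes read in this way 45.0% were called, 22.5% in each direction, and the median difference was -0.05 in the lists and -0.04 over all genes.

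Among 11 other neurotrophic ligands, 3 were higher and 1 lower (median 0.04). Ciliary neurotrophic factor (Cntf), a survival factor for motor neurons, read 6.30, 6.30, 6.07 and 5.64 in the atria and 4.78, 4.63, 4.74 and 4.83 in the ventricles, a difference of 1.34 (2.52 fold, adjusted p = 2.0e-05). As for Ntf3, its lowest atrial value was in replicate 4. Pleiotrophin (Ptn) was higher in the atria by 0.70 and Manf, a stress-induced factor of the endoplasmic reticulum, by 0.66. Persephin (Pspn), a Gdnf relative, was lower (-0.24, adjusted p = 0.022), a call lost without atrial replicate 1 (-0.20, adjusted p = 0.057) or ventricular replicate 2 (-0.21, 0.062) or 3 (-0.24, 0.05), and without both atrial replicates 1 and 4 (-0.19, 0.097). Neurturin (Nrtn, 0.15) and neurotrophin-4 (Ntf4, -0.19, both means under 4), a second ligand of TrkB, were not called.

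Among 17 other receptors and coreceptors, 3 were higher and 5 lower (median -0.16). Sortilin (Sort1), which binds neurotrophin precursors together with p75 and sorts Bdnf within the cell, read 9.03, 9.12, 9.01 and 8.88 in the atria and 7.55, 7.58, 7.66 and 7.49 in the ventricles. The difference was 1.44 (SE 0.07, 2.72 fold, adjusted p = 1.1e-07), and a second Sort1 probe set gave 0.78. The coreceptors of the other GDNF relatives ran lower in the atria or were not called: Gfra3 by -0.40 (adjusted p = 0.0013), Gfra4 by -0.43 with both means under 4 (adjusted p = 0.0012), and Gfra2 by -0.27 without passing (adjusted p = 0.074). Syndecan-3 (Sdc3), a proteoglycan that binds Gdnf, was lower at all 3 of its probe sets (-0.77, -0.64 and -0.44). The sortilin relative Sorcs2 was also lower (-0.35, adjusted p = 0.041), but of the 8 single arrays only atrial replicate 4 could be left out without the loss of that call (adjusted p 0.052 to 0.11 otherwise), and the Lif receptor Lifr (0.44) and the Ret and Trk regulator Lrig1 (0.27) were higher.

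Proteases that cut neurotrophin precursors or receptors and the inhibitors of such proteases were divided. Of 17 measured, 5 were higher and 7 lower (median -0.11). The proprotein convertase Pcsk6 read 7.72, 7.59, 7.54 and 7.57 in the atria and 8.85, 8.92, 8.83 and 8.71 in the ventricles, 2.33 fold less in the atria (-1.22, adjusted p = 3.4e-07), and Pcsk7 was lower by a difference of -0.57, while Pcsk5 was higher by 0.55. Of the plasmin system, which can mature Bdnf outside the cell, plasminogen (Plg, 0.59) and urokinase (Plau, 0.45) were higher and tissue plasminogen activator (Plat, -0.42) was lower. Without atrial replicates 1 and 4 the Plau difference was 0.33 (adjusted p = 0.083). The matrix protease Mmp2 was higher (0.39) and the sheddase Adam17 lower (-0.39). Serpine2, an inhibitor of such proteases and 1 of the 7, was lower (-0.28, adjusted p = 0.048). That call was lost without any 1 of 6 arrays (adjusted p 0.059 to 0.12) and without both atrial replicates 1 and 4 (-0.29, 0.094).

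**Figure D3:**
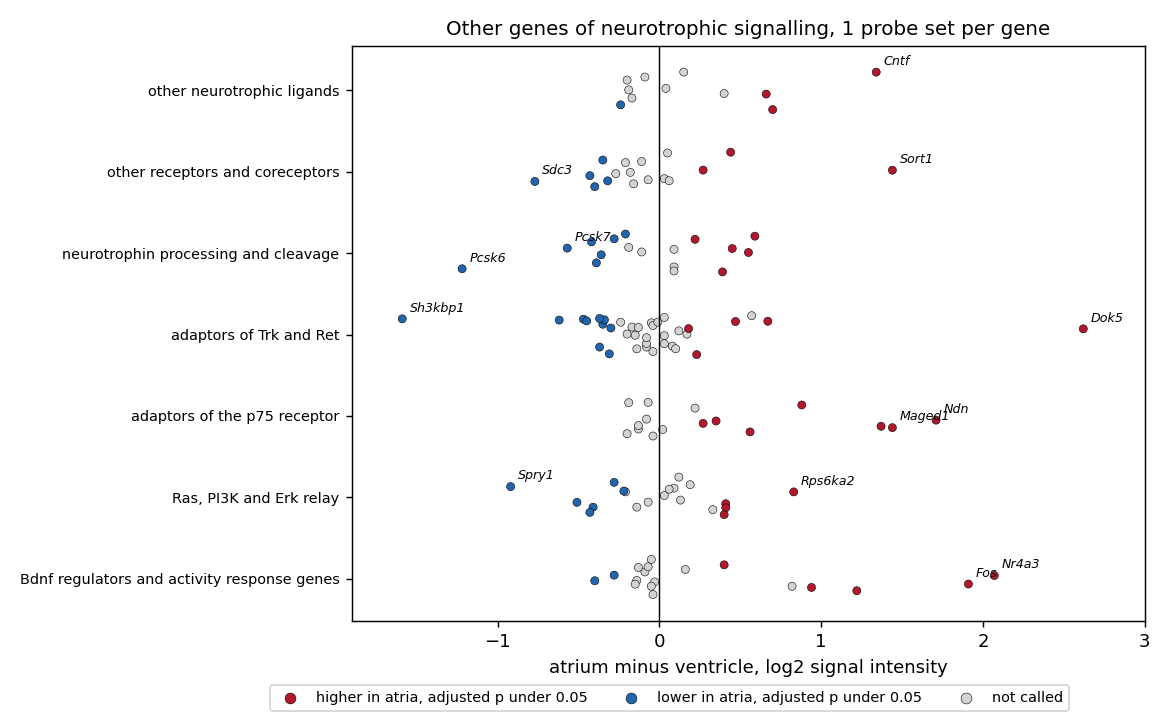
Difference between atrial and ventricular means (log2 signal intensity) for the 135 measured genes of the 7 pathway lists, with 1 point per gene and lists in rows, spread vertically only to separate points. Dok5 (2.62) and Sh3kbp1 (-1.59) are the outermost points, and the row of the p75 receptor holds called points on the higher side only.

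Of 36 adaptors of Trk and Ret kinases, 5 were higher and 10 lower (median -0.08). Dok5, a docking protein for Ret and Trk kinases, read 7.76, 8.36, 7.96 and 7.83 in the atria and 5.66, 5.36, 5.03 and 5.37 in the ventricles, the largest difference in the 7 lists at 2.62 (SE 0.15, 6.16 fold, adjusted p = 3.6e-07), and its second probe set gave 3.52. Sh3kbp1, an adaptor that takes activated receptors into endosomes, read 9.84, 9.68, 9.65 and 9.78 against 11.36, 11.34, 11.25 and 11.35, a difference of -1.59 (3.01 fold less, adjusted p = 3.5e-08), with -1.58 at a second probe set. The ubiquitin ligase Nedd4l (0.67), the docking protein Frs2 (0.47) and the Trk substrate Kidins220 (0.23) were higher, and Sh2b3 (-0.62), Sos1 (-0.47) and Rapgef1 (-0.45) lower. The Kidins220 call was lost without atrial replicate 2 (0.21, adjusted p = 0.052) or 3 (0.19, 0.059) or ventricular replicate 2 (0.21, 0.051).

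Of 16 adaptors and other partners of the p75 receptor, which include subunits of the gamma-secretase that cleaves it, 7 were higher in the atria and the other 9 did not pass (median 0.12). Maged1, which links p75 to cell death, read 9.62, 9.77, 9.70 and 9.56 in the atria and 8.20, 8.15, 8.25 and 8.29 in the ventricles (1.44, 2.71 fold, adjusted p = 9.2e-08). Its relative necdin (Ndn) read 6.96, 6.92, 6.92 and 7.28 against 5.16, 5.11, 5.63 and 5.33 (1.71, 3.28 fold, adjusted p = 1.8e-06). Bex1 was higher by 1.37, and Bex3 by 0.88 at its brighter probe set but by -0.12, not called, at the other. The gamma-secretase subunit Ncstn was higher by 0.56. The p75 receptor itself was dim, and these adaptors also serve other receptors.

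In the Ras, PI3-kinase and Erk relay, 4 of 20 genes were higher and 6 lower (median 0.05). The ribosomal S6 kinase Rps6ka2 was higher (0.83, 1.77 fold, adjusted p = 2.3e-05), as were Pdpk1 and Rps6ka5 (0.41 each) and Akt2 (0.40). Sprouty-1 (Spry1), an inhibitor of receptor kinases that restrains Ret, was lower (-0.92, 1.90 fold less, adjusted p = 7.4e-07). The feedback inhibitors Dusp6 (-0.51) and Spry4 (-0.43) and the kinase Akt1 (-0.41) were lower too, with Spry4 at -0.37 (adjusted p = 0.051) when ventricular replicate 4 was left out.

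Of 18 regulators of Bdnf and genes that respond to activity, 5 were higher and 2 lower (median -0.04). The immediate early genes Nr4a3 (2.07, 4.19 fold, adjusted p = 0.01), Fos (1.91, 3.76 fold, adjusted p = 0.025), Egr1 (1.22, 2.32 fold, adjusted p = 0.0099) and Egr2 (0.94, 1.92 fold, adjusted p = 0.0032) were higher in the atria. Nr4a3 read 4.61, 7.18, 6.47 and 4.78 in the atria against 3.22, 3.42, 3.59 and 4.54 in the ventricles, and Fos read 6.59, 8.37, 5.05 and 5.69 against 3.76, 5.09, 4.48 and 4.73. Atrial replicate 2 was the highest pool in all 4 of these genes, and in Fos atrial replicate 3 fell below ventricular replicate 2. Without atrial replicates 1 and 4 the Nr4a3 difference was 3.13 (adjusted p = 1.2e-04), and without atrial replicate 2 the Fos difference was 1.26 (adjusted p = 0.026). The Fos call was lost without atrial replicate 1 (1.85, adjusted p = 0.056) or ventricular replicate 1 (1.66, 0.07) or 3 (1.90, 0.055). Bhlhe40, a repressor of Bdnf promoters, was lower (-0.40, adjusted p = 0.019), as was the Creb coactivator Crtc2 (-0.28, adjusted p = 0.016). The Bhlhe40 call was lost without atrial replicate 1 (-0.35, adjusted p = 0.054) or 2 (-0.31, 0.052) or ventricular replicate 4 (-0.35, 0.054).

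Markers of the cell types that could carry these transcripts also differed between the chambers. Their counts stand beside 22.5% of all genes called in each direction. Of 23 neuron markers 17 lay under 4 in both tissues, among them Th, Chat, Stmn2 and Tubb3, and the summed level, as the mean over the list, was 3.67 to 3.91 in atrial and 3.77 to 3.84 in ventricular pools. Not all were dim: Npy had atrial and ventricular means of 7.16 and 7.45, and Gap43 of 5.18 and 5.26, neither called. Uchl1 (0.45) and Prph (0.31) were higher in the atria, and the noradrenaline transporter Slc6a2 (-0.44) and Ddc (-0.39) lower. The Prph call was lost without atrial replicate 2 (0.29, adjusted p = 0.056) or ventricular replicate 3 (0.30, 0.05) or 4 (0.26, 0.06). The Schwann cell and glia list ran from 4.74 to 4.98 in the atria and 4.43 to 4.62 in the ventricles, with 3 of 13 genes higher (Mbp, 2.92, S100b, 2.06, and Mal, 1.25) and 3 lower (L1cam, -0.75, Sox10, -0.59, and Gfra3, -0.40), and with Gfap, Fabp7, Erbb3 and Foxd3 under 4 in both.

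**Figure D4:**
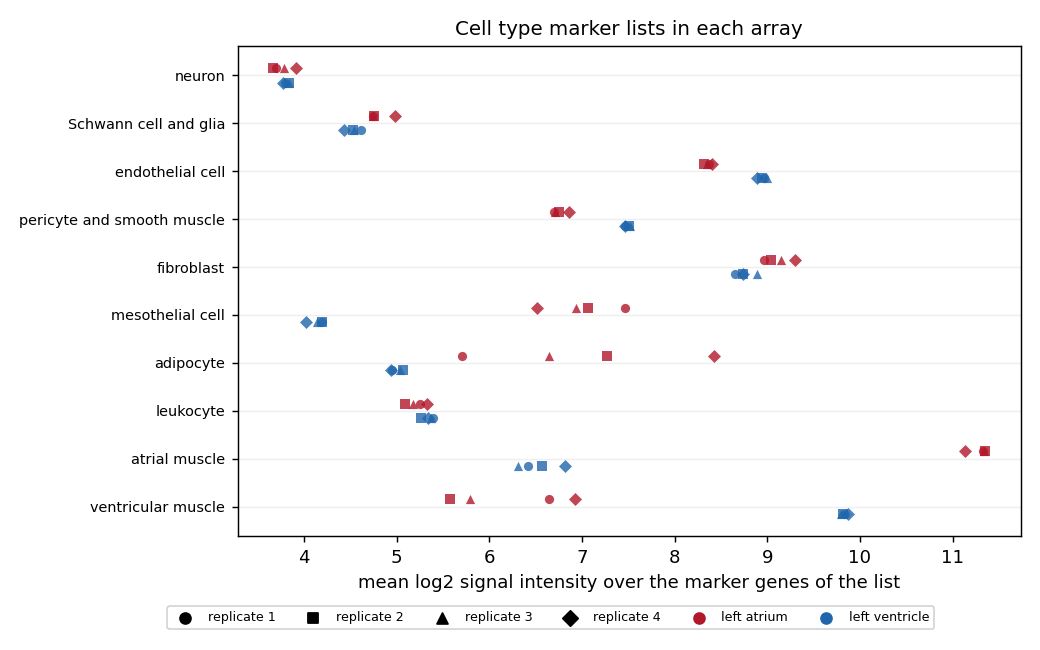
Mean log2 signal intensity over the marker genes of 10 cell types (rows) on each array, with atrial pools in red, ventricular pools in blue and a symbol per replicate number. Endothelial and pericyte markers are lower and mesothelial and adipocyte markers higher in the atria, and atrial replicate 4 has the highest adipocyte level, at 8.43.

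Ventricular muscle and vascular markers moved in the direction of Bdnf and Ret. Ventricular muscle markers were lower in the atria in 10 of 10 genes (list level 5.58 to 6.92 against 9.8 to 9.87) and atrial muscle markers higher in 8 of 8 (11.14 to 11.35 against 6.31 to 6.82). Both muscle lists hold genes that the study had already reported as different between the chambers in these data, Gpsm1 and Kcnj5 among them. Their counts were thus largely set in advance. Endothelial markers were lower in the atria in 11 of 16 genes (Kdr by a difference of -1.34) with Vwf higher (0.93), and the list's level was 8.32 to 8.4 in the atria and 8.89 to 9.0 in the ventricles. Pericyte and smooth muscle markers were lower in 13 of 14 (6.70 to 6.86 against 7.47 to 7.52). Mesothelial markers (9 of 10 higher, 6.52 to 7.47 against 4.02 to 4.19), adipocyte markers (7 of 11 higher, 5.71 to 8.43 against 4.94 to 5.07) and fibroblast markers (10 of 15 higher, 8.97 to 9.30 against 8.65 to 8.89) were higher. Like the atrial muscle markers, they moved in the direction of Ntf3, Cntf and the main probe set of Ntrk2, the only called one of that gene. Leukocyte markers were mixed, with 3 of 15 higher and 6 lower, not far from the 22.5% of all genes called in each direction. Atrial replicate 4 was lowest of the atrial pools in mesothelial and atrial muscle markers. It was highest of them in every other cell type list, including adipocyte, fibroblast, endothelial, pericyte and ventricular muscle markers. Its value was the lowest in Ntf3 and in Bdnf at its main probe set but the highest in Bdnf at the second. The part of these cell types in the differences of the 8 genes was not tested.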

How the data were processed

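Total RNA, 10 μg per array, of 4 atrial and 4 ventricular pools was labeled with biotin and hybridized. The left side rests on the study's methods. The deposited values are log2 intensities that the authors computed by RMA, which corrects background, equalizes the distributions of the arrays and summarizes each probe set. They ran from 1.9 to 13.77, with array medians of 4.8 or 4.81, and were used without further scaling. The number of arrays, not a read depth, limits precision.

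Names came from a platform annotation of 2016: 20826 probe sets carried 1 symbol, 436 several and 9780 none. For 20758 probe sets the symbol was looked up by gene ID. All 31042 probe sets were fitted unpaired with limma 3.58.1 in R 4.3.3, with Benjamini-Hochberg adjustment, after the procedure was tested on simulated data. A gene was read through its brightest probe set by mean over the 8 arrays. Differences between probe sets of a gene were tested by an exact permutation test over arrays. Levels of different probe sets were not compared. The rule for named genes took all members, list genes that bind a member, up to 4 called genes per list and direction with the largest difference, 3 nearest profiles per called member and 9 chamber markers. Serpine2 and Ncstn were named after their values were seen. Members and lists were chosen with earlier results of these data known. Because no source gives the animals of each pool, pools were treated as unpaired. Each array holds 1 pool, so p-values rest on the spread between pools and not between animals. Whether same-numbered pools belong together was looked at but could not be settled, and the replicate block was run as an alternative only.

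Alternatives were the SAM statistic (rewritten, 70 divisions of the arrays, q under 0.05), trended and robust limma, the replicate block, median centring, quantile and cyclic loess normalization, omission of the dimmest 40% of probe sets, omission of each array or of atrial replicates 1 and 4, the mean of a gene's probe sets, and the fold of the study with a limma adjusted p under 0.0001 or, chosen after seeing the data, with the SAM rate of the study. Figures used matplotlib 3.10.9 in Python 3.11.15.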

Additional observations from a re-analysis of the deposited data

Results flagged for a closer look

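Atrial replicate 4 lay apart from the other atrial pools in Bdnf at its main probe set, with 4.99 against 5.44 to 5.52. Its gap to the nearest pool was 0.855 of the range of the group, above the 95% critical value of Dixon's test. Chance alone would mark about 1 in 20 groups, and 32 groups of 4 arrays were looked at, 1 per member probe set and tissue. The difference between the chambers was -1.80 without this pool and -1.92 with it.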

How the results depend on the processing

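Of 207 alternative values, 188 kept their direction and call or, for counts, stayed within 1.5 times the value reported, 9 counts moved by more, 3 values were reversed, 3 newly passed and 4 no longer passed. The fold of the study with a limma adjusted p under 0.0001 left 0 member probe sets higher and 1 lower in the atria (from 2 and 6), and 7 pathway genes higher and 3 lower (from 32 and 31), and the SAM statistic at the false discovery rate and fold of the study, added after the data were seen, gave the same counts. At a SAM q under 0.05, which 55.4% of all probe sets passed, 40 pathway genes were higher and 48 lower, 8 member probe sets were lower, and Ngfr (-0.24, q = 0.021) and Gfra1 (-0.21, q = 0.039) passed. Ngfr also passed without atrial replicates 1 and 4 (-0.33, adjusted p = 0.048). The Ntrk2 mean over its probe sets did not pass (0.14, adjusted p = 0.12), and the same mean moved Bdnf from -1.92 to -1.19. The uncalled Ntrk3 difference of -0.04 turned to 0.03 under quantile normalization (adjusted p = 0.75), to 0.04 under cyclic loess (0.73) and to 0.0 without atrial replicate 3 (0.97). The causes were not tested. Over all limma alternatives the adjusted p ran from 1.6e-09 to 1.9e-05 for Bdnf, 3.4e-04 to 0.014 for Ntf3, 0.0087 to 0.063 for Gdnf, 0.0031 to 0.12 for Ntrk2, 1.3e-04 to 0.0023 for Ret, 0.048 to 0.26 for Ngfr, 0.078 to 0.67 for Gfra1 and 0.39 to 0.97 for Ntrk3. With 1 array left out, member probe sets higher in the atria numbered 2 to 3 and lower 4 to 6, pathway genes 29 to 33 and 27 to 34, and the differences were -1.98 to -1.80 for Bdnf, 0.48 to 0.68 for Ntf3, -0.40 to -0.28 for Gdnf, 0.38 to 0.49 for Ntrk2, -0.09 to 0.0 for Ntrk3, -0.29 to -0.15 for Ngfr, -0.66 to -0.54 for Ret and -0.26 to -0.11 for Gfra1. Gdnf did not pass without atrial replicate 1 (-0.30), atrial replicate 2 (-0.28) or ventricular replicate 1 (-0.28). Gdnf, Ntrk3 and Ngfr fell among the dimmest 40%, so that alternative gave no value for them.

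Same-numbered pools had residual correlations from -0.188 to 0.155, and 2 of 4 atrial pools correlated best with their own number. With 4 pools per tissue these values cannot tell whether same-numbered pools came from the same animals. With the replicate block, 2 member probe sets were higher and 6 lower, pathway genes numbered 32 and 30, and the differences kept their values and calls, for example -1.92 for Bdnf (adjusted p = 1.9e-05) and -0.34 for Gdnf (0.047).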
